A study of Mus musculus with 12 samples.

Results

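The genes described here are the enzymes and transporters that carry glucose to lactate together with the transcription factor subunit Hif1a and genes known as its hypoxia targets. Of 31 listed genes, 29 were read by a probe set with a single gene symbol, and for each the probe set with the highest mean over the 12 arrays was used. All 29 lay above the filter on low signal, among 12792 genes tested of 18194 with such a probe set. Gpi1 and Eno1 were in no row of the annotation used and were not analysed here. The arrays held RNA from dendritic cells, the antigen-presenting cells that prime T cells, taken from lymph nodes of C57BL/6 mice and kept in culture. Cells labelled p38a-knockout (KO) or wild type (WT) were sampled unstimulated (0 h) and at 2 and 4 h after addition of Pam3CSK4, a lipopeptide that activates the receptor TLR2. Each of the 6 groups had 2 arrays, A and B. Age, the number of animals and how the Mapk14 gene was deleted are not stated in the labels.

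Glycolysis turns glucose into pyruvate and lactate and yields energy without oxygen. Dendritic cells are known to raise glycolytic flux soon after a Toll-like receptor ligand binds. HIF-1 alpha, encoded by Hif1a, is hydroxylated by the EGLN prolyl hydroxylases in normal oxygen and then degraded after capture by VHL; when stabilised it activates many glycolytic genes and hypoxia genes, Egln3 among them. p38 alpha, encoded by Mapk14, is a kinase activated by stress and by such receptors.

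Values below are log2(signal + 16) after quantile normalization, here called log2 levels, and a difference is the first-named group minus the second. Errors after ± are standard errors from limma fitted to all 12 arrays, and a gene is called where its Benjamini-Hochberg adjusted p over all tested genes is below 0.05. The labels do not say whether both arrays of a group stem from different animals or cultures, so p-values measure the spread between these arrays, which may be technical. No untreated arrays at 2 or 4 h were analysed here, so an effect of the ligand and one of time in culture cannot be told apart. In these bulk samples fewer cells of a type and less RNA per cell cannot be told apart either. Arrays of a group correlated with r of 0.987 to 0.990 across the tested genes. The highest r of each array with an array of another group was 0.984 to 0.989, an overlapping range. The labels could not be checked by the targeted gene: Mapk14 was higher in the KO arrays than in the WT arrays by 0.31 ± 0.08 averaged over the times (adjusted p = 0.0138), and the probe set may lie outside the deleted part. All 10 dendritic cell markers were above the filter. Of other cell types, 4 of 5 measured B cell, 6 of 7 T cell, 7 of 7 macrophage and monocyte, 5 of 5 neutrophil and 0 of 2 red cell markers were too.

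After addition of the ligand the list split. A small set rose in both genotypes (Slc2a6, Hk2, Pfkp, Egln3, Adm and Ndrg1, at both times), and of the enzymes below phosphofructokinase Tpi1 and Aldoa were called lower at 4 h in both genotypes, with Pgk1 and Pkm called in KO alone and with no difference of response between the genotypes called. In KO arrays at 2 h, 7 of 29 genes were called higher and 2 lower than at 0 h, beside 7.85% and 11.7% of all tested genes. At 4 h in KO arrays 6 were higher and 6 lower than at 0 h, beside 7.24% and 10.9%. In WT arrays 7 were higher and 2 lower at 2 h, beside 8.43% and 11.5%, and 7 were higher and 5 lower at 4 h, beside 8.31% and 9.9%. The median difference of the 29 genes stayed near that of all genes. It was -0.06 in KO at 2 h and -0.11 in KO at 4 h, where all genes had -0.06 and -0.05, and in WT it was -0.10 at 2 h and -0.04 at 4 h, where all genes had -0.05 and -0.02. The higher calls came from 7 genes, Hif1a being the seventh.

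The split depended on the scale. On the deposited signals without further scaling the median of all genes was itself shifted by -0.41 in KO and -0.35 in WT at 2 h, and by -0.20 in KO and -0.16 in WT at 4 h. On that scale 1 gene was called higher and 8 lower in KO at 2 h, beside 1.52% and 25.2% of all tested genes, and 2 higher and 4 lower in WT at 2 h, beside 2.1% and 15.8%. At 4 h it called 2 higher and 2 lower in each genotype, beside 1.48% and 5.19% in KO and 1.96% and 4.54% in WT. The calls it kept at 2 h were Adm, Pfkfb3 and Vegfa in KO and Slc2a6 and Adm in WT, and at 4 h Hk2, Egln3, Vegfa and Bnip3 in both. With each array set to a common trimmed mean, KO arrays gave 7 higher and 2 lower at 2 h, beside 7.62% and 12.6%, and 6 higher and 5 lower at 4 h, beside 6.96% and 11.4%. WT arrays then gave 7 higher and 4 lower at 2 h, beside 8.18% and 13%, and 7 higher and 3 lower at 4 h, beside 7.9% and 10.3%. Of the enzymes below phosphofructokinase, that scaling lost the 4 h calls of Aldoa in both genotypes and of Pgk1 in KO. It kept those of Tpi1 in both genotypes and of Pkm in KO.

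Markers of other cells and of RNA quality moved with time as well. Of 7 macrophage and monocyte markers, KO arrays had 6 called lower at 2 h, and 5 lower and 1 higher at 4 h, while WT arrays had 4 lower at 2 h, and 4 lower and 1 higher at 4 h. The marker called higher was Adgre1 in both genotypes. Other marker lists moved with time too. Of 10 dendritic cell markers 4 were called higher and 2 lower at 2 h in each genotype. At 4 h 3 were higher in KO, and 4 were higher and 1 lower in WT. Of 4 tested B cell markers 2 were lower in KO at 4 h, 2 in WT at 2 h and 1 in WT at 4 h. The neutrophil marker S100a8 was called higher in WT at 2 h and in both genotypes at 4 h. S100a9 was higher and the T cell marker Cd3g lower in WT at 4 h. Shares over all tested genes are given above. The 18S ribosomal RNA control had log2 levels of 9.57 and 10.40 in KO arrays at 0 h, 10.46 and 10.87 after 2 h, then 10.21 and 9.95 after 4 h. In WT arrays it had 9.72 and 9.57 at 0 h, 10.19 and 10.54 after 2 h, then 9.91 after 4 h in both. The arrays at 2 h were above those at 0 h in each genotype. The 3′ minus 5′ level of the Gapdh control averaged -0.20 in KO at 0 h, -0.17 at 2 h and -0.19 at 4 h, and in WT it averaged -0.39 at 0 h, -0.25 at 2 h and -0.26 at 4 h. The part of these shifts in the changes of the listed genes was not tested.

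**Figure D1:**
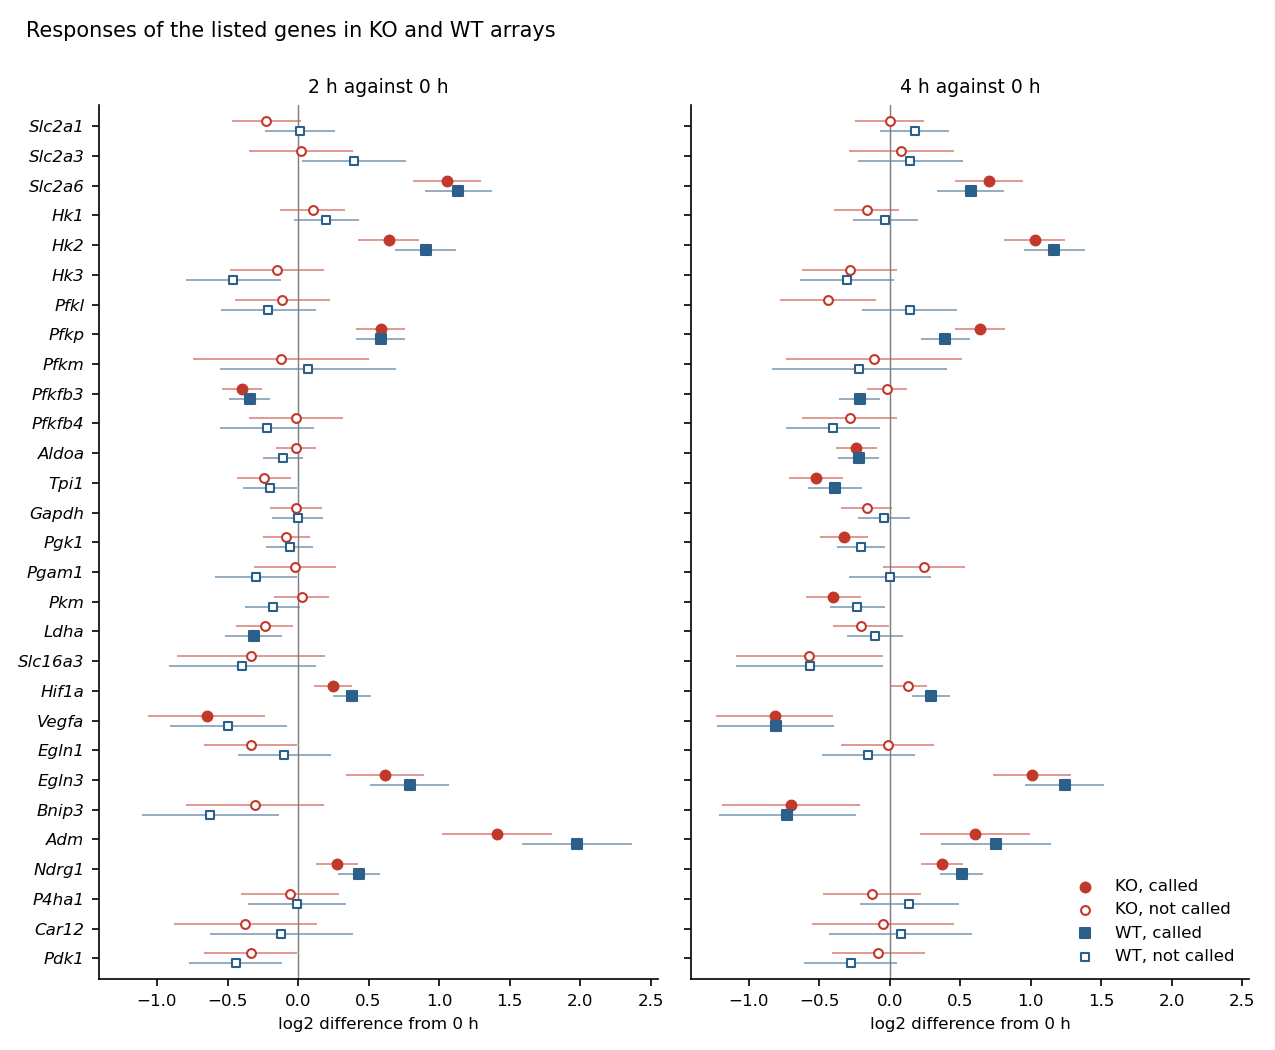
Log2 difference from 0 h of the 29 measured genes at 2 h (left) and 4 h (right), KO as red circles above WT as blue squares, with 95% confidence intervals of the limma fit and filled symbols where the gene was called. Slc2a6, Hk2, Pfkp, Egln3, Adm and Ndrg1 lie right of 0 in both genotypes at both times, and Vegfa, Bnip3 and Tpi1 lie left of it.

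Glucose uptake was covered by 3 transporters. Slc2a6, a member of the glucose transporter family that resides largely on intracellular membranes, had log2 levels of 8.42 and 8.16 in KO arrays at 0 h, 9.37 and 9.32 after 2 h, then 8.90 and 9.09 after 4 h. In WT arrays it had 8.21 and 8.20 at 0 h, 9.49 and 9.18 after 2 h, then 8.72 and 8.83 after 4 h. Every array at 2 h was above every array at 4 h, and every array at 4 h above every array at 0 h. The difference from 0 h was 1.06 ± 0.11 in KO (adjusted p = 5.19e-06) and 1.14 ± 0.11 in WT (adjusted p = 1.98e-06) at 2 h. At 4 h it was 0.71 ± 0.11 in KO (adjusted p = 0.000298) and 0.57 ± 0.11 in WT (adjusted p = 0.0017). These 4 calls were kept without any 1 array, but on the deposited scale WT at 2 h was the one kept (adjusted p = 0.0737 in KO at 2 h, 0.239 in KO at 4 h and 0.397 in WT at 4 h). Slc2a1, the widespread plasma membrane glucose transporter, was called in none of the comparisons, with log2 levels from 8.19 to 8.66 over the 12 arrays. Slc2a3, a high-affinity glucose transporter, was not called either, and its largest difference was 0.40 ± 0.17 in WT at 2 h.

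Of 3 hexokinases, which trap glucose in the cell as its phosphate, Hk2 rose. Hk2 encodes the inducible isoform that binds mitochondria. Its log2 levels in KO arrays were 7.34 and 7.31 at 0 h, 7.88 and 8.06 after 2 h, then 8.37 and 8.34 after 4 h. WT arrays gave 7.19 and 7.18 at 0 h, 8.09 after 2 h in both arrays, then 8.46 and 8.24 after 4 h. The arrays of the 3 times did not overlap in either genotype. Relative to 0 h, Hk2 was higher by 0.64 ± 0.10 in KO and 0.90 ± 0.10 in WT at 2 h (adjusted p = 0.000279 and 8.13e-06), and by 1.03 ± 0.10 in KO and 1.17 ± 0.10 in WT at 4 h (adjusted p = 2.48e-06 and 5.3e-07). All 4 calls were kept without any 1 array. On the deposited scale both calls at 2 h were lost, with 0.16 in KO (adjusted p = 0.652) and 0.53 in WT (adjusted p = 0.135), and both at 4 h were kept. Hk1, the constitutive isoform, and Hk3, the isoform of myeloid cells, were not called in any response. Hk3 had differences of -0.15 ± 0.16 in KO and -0.46 ± 0.16 in WT at 2 h, the second with an adjusted p of 0.0529. That WT difference lay at the threshold: it was called with the replicate block (adjusted p = 0.0452), with trimmed-mean scaling (adjusted p = 0.0207), with the mean of all probe sets (adjusted p = 0.00629) and on the deposited scale (adjusted p = 0.0147), and the second probe set was called at -0.52.

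Phosphofructokinase, the committed step of glycolysis, has 3 isoforms, and Pfkp, the platelet isoform, was the one that changed. Its log2 levels in KO arrays were 8.62 and 8.49 at 0 h, 9.13 and 9.14 after 2 h, then 9.15 and 9.24 after 4 h. In WT arrays they were 8.56 and 8.46 at 0 h, 9.09 and 9.10 after 2 h, then 8.96 and 8.85 after 4 h. All 8 arrays after ligand were above all 4 arrays at 0 h. The differences from 0 h were 0.58 ± 0.08 in KO and 0.59 ± 0.08 in WT at 2 h (adjusted p = 0.000101 and 8.71e-05), and 0.64 ± 0.08 in KO and 0.39 ± 0.08 in WT at 4 h (adjusted p = 4.03e-05 and 0.00286). They rest on 1 of 3 probe sets: the other 2 above the filter gave -0.01 to 0.14 in KO and 0.04 to 0.48 in WT, with no call. With the mean of all probe sets, the KO calls at both times and the WT call at 4 h were lost. Pfkl, the liver isoform, had a difference of -0.44 ± 0.16 in KO at 4 h that was not called (adjusted p = 0.0723), and Pfkm, the muscle isoform, ranged from 4.54 to 5.61 over the arrays with no call.

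Pfkfb3 moved the other way from Pfkp at 2 h. It encodes the enzyme that makes the sugar bisphosphate activating phosphofructokinase. KO arrays had log2 levels of 11.48 and 11.30 at 0 h, 11.01 and 10.98 after 2 h, then 11.31 and 11.44 after 4 h. WT arrays had 11.73 and 11.74 at 0 h, 11.42 and 11.37 after 2 h, then 11.52 after 4 h in both. Levels dipped at 2 h in both genotypes and were nearer the 0 h levels at 4 h. The difference from 0 h at 2 h was -0.40 ± 0.07 in KO and -0.34 ± 0.07 in WT (adjusted p = 0.000577 and 0.00166), and the WT call was lost with trimmed-mean scaling. At 4 h it was -0.21 ± 0.07 in WT (adjusted p = 0.0397), a call that was lost without any 1 of the 4 arrays compared (adjusted p 0.112 to 0.138) and whose other probe set gave 0.02, and -0.02 ± 0.07 in KO with no call. Pfkfb4, a second enzyme of this kind, was not called, with differences of -0.28 ± 0.16 in KO and -0.40 ± 0.16 in WT at 4 h.

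**Figure D2:**
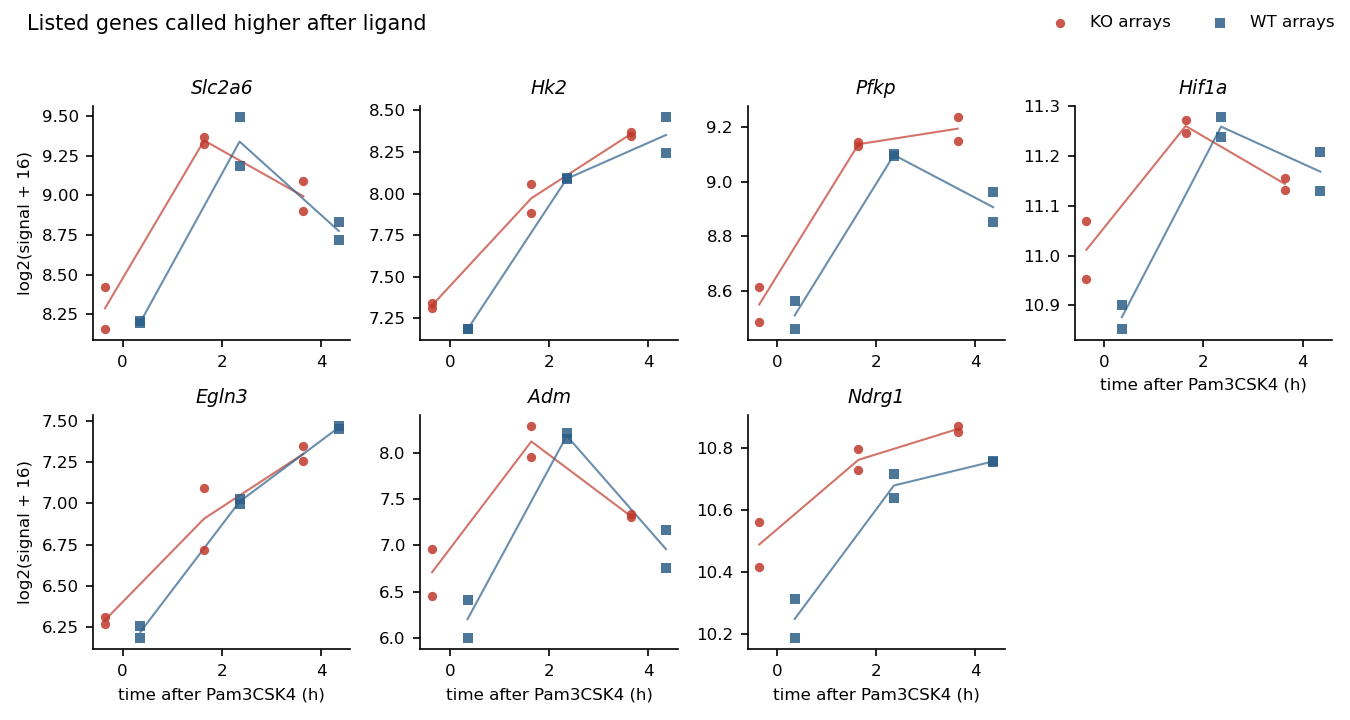
Log2 level in every array of the 7 genes called higher after ligand in at least 1 genotype, by hours after Pam3CSK4, KO as red circles left of WT as blue squares and lines through the group means. Slc2a6, Hif1a and Adm are highest at 2 h, and Hk2, Egln3 and Ndrg1 are highest at 4 h in both genotypes.

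The promoter windows of the genes called higher in all 4 responses are shown because these genes carry the rise. Of the 6, Slc2a6, Hk2, Pfkp, Egln3 and Adm are in the RefSeq table used (GRCm38.p6), and Ndrg1 is not. Each window runs from 250 bases before to 50 bases after the first-listed start of the gene, 5′ to 3′ on the gene's strand. Capitals mark the core of the HIF binding element, searched as ACGTG and GCGTG and, on the other strand, CACGT and CACGC.
Slc2a6, chr2:27027949-27028248, minus strand: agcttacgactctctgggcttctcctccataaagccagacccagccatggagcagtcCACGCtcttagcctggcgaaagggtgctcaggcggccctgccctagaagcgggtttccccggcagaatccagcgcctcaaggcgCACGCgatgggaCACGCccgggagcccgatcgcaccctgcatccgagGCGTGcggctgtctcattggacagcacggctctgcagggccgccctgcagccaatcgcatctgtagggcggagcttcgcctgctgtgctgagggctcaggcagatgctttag
Hk2, chr6:82774405-82774704, minus strand: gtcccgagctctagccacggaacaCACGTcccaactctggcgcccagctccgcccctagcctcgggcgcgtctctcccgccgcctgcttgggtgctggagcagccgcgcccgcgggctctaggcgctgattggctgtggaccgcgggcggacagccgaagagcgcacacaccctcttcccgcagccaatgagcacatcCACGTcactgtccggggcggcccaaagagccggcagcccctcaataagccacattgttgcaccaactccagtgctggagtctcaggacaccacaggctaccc
Pfkp, chr13:6648722-6649021, minus strand: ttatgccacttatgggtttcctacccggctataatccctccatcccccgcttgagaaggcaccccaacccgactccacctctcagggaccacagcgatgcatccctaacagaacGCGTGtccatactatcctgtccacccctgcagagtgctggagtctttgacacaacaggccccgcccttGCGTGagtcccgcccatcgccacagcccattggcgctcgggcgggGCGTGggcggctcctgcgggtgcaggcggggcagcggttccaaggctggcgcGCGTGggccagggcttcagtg
Egln3, chr12:54203825-54204124, minus strand: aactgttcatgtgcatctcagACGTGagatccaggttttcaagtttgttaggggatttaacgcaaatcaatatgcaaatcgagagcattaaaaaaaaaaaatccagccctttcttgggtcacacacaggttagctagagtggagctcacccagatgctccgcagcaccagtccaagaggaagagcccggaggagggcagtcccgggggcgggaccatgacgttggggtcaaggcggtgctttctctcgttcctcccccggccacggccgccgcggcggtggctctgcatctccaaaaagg
Adm, chr7:110627407-110627706, plus strand: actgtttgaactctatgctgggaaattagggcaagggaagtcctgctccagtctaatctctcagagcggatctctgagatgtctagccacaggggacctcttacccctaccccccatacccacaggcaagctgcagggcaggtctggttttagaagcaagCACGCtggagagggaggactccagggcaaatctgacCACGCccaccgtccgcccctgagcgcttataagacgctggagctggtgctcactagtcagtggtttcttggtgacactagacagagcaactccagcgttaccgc
The window of Slc2a6 and that of Pfkp hold 4 such matches each, those of Hk2 and Adm 2 each, and that of Egln3 1. None of these 5 windows holds the E-box CACGTG, which contains both ACGTG and CACGT. A core match is common: 22 of the 29 listed genes with a window have at least 1 (75.9%), beside 61.2% of 10324 tested genes with a window and 43.8% of all 27025 genes in the table. Genes without a rise hold it too, Ldha with 7 matches in 5 separate runs and Bnip3 with 5 matches in 4. The Ldha window holds 2 E-boxes and that of Bnip3 1, and each E-box counts as 2 matches. A match of these letters is a description of the sequence and not a site of binding.

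Of the 6 genes measured from aldolase to pyruvate kinase (Aldoa, Tpi1, Gapdh, Pgk1, Pgam1 and Pkm), limma called 0 at 2 h in either genotype, where 1 in KO (Tpi1) and 2 in WT (Tpi1 and Pgam1) had an unadjusted p below 0.05. At 4 h it called 4 lower in KO and 2 in WT. Tpi1, triosephosphate isomerase, had log2 levels of 10.07 at 0 h in both KO arrays, 9.72 and 9.93 after 2 h, then 9.54 and 9.56 after 4 h. WT arrays gave 9.98 and 9.73 at 0 h, 9.70 and 9.60 after 2 h, then 9.50 and 9.43 after 4 h. In each genotype all arrays at 4 h were below all arrays at 0 h. Tpi1 fell by 0.52 ± 0.09 on the log2 scale in KO (adjusted p = 0.000626) and by 0.39 ± 0.09 in WT (adjusted p = 0.00625) at 4 h, and 2 other probe sets were called lower in both genotypes. At 2 h it was already at -0.24 ± 0.09 in KO and -0.20 ± 0.09 in WT, with no call (adjusted p = 0.0716 and 0.145) and no overlap with the arrays at 0 h. The WT call was lost with WT 0 h A removed (adjusted p = 0.0957) and with WT 4 h B removed (adjusted p = 0.0568).

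Aldoa, fructose bisphosphate aldolase, changed little. Its log2 levels were 11.43 and 11.44 in KO arrays at 0 h, 11.39 and 11.45 after 2 h, then 11.13 and 11.28 after 4 h. They were 11.30 and 11.39 in WT arrays at 0 h, 11.30 and 11.17 after 2 h, then 11.11 and 11.14 after 4 h. At 4 h it was lower, with differences of -0.24 ± 0.07 in KO (adjusted p = 0.0234) and -0.22 ± 0.07 in WT (adjusted p = 0.0342), with no overlap between the arrays. Both calls were lost on the deposited scale, with trimmed-mean scaling and without trend. The WT call was also lost without a filter and with only the groups compared. The KO call was lost with KO 0 h A, KO 0 h B or KO 4 h A removed (adjusted p = 0.0795, 0.101 and 0.228), and the WT call with WT 0 h B, WT 4 h A or WT 4 h B removed (adjusted p = 0.193, 0.152 and 0.0981).

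Pgk1, phosphoglycerate kinase, and Pkm, the pyruvate kinase gene, were called lower at 4 h in KO arrays. Pgk1 had 10.70 and 10.81 in KO arrays at 0 h, 10.63 and 10.71 after 2 h, then 10.50 and 10.36 after 4 h. In WT arrays it had 10.71 and 10.55 at 0 h, 10.62 and 10.51 after 2 h, then 10.47 and 10.38 after 4 h. The fall in KO was -0.32 ± 0.08 (adjusted p = 0.00894) and was not called with KO 0 h B or KO 4 h B removed (adjusted p = 0.0921 and 0.111); WT had -0.20 ± 0.08 (adjusted p = 0.0939). The KO call of Pgk1 was also lost on the deposited scale, with trimmed-mean scaling, with the mean of all probe sets and without trend. Pkm had 8.53 and 8.63 in KO arrays at 0 h, 8.63 and 8.59 after 2 h, then 8.17 and 8.19 after 4 h. WT arrays had 8.56 and 8.38 at 0 h, 8.35 and 8.23 after 2 h, then 8.27 and 8.20 after 4 h. The KO arrays at 4 h stood apart from the other 4 KO arrays, with a difference from 0 h of -0.40 ± 0.09 (adjusted p = 0.00529, and 0.0558 without KO 0 h B), while in WT it was -0.23 ± 0.09 with no call. The difference between these responses was not called for either gene, as given below. Gapdh, read here by a 5′ array-control probe set, and Pgam1, phosphoglycerate mutase, were not called in any comparison.

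Lactate production and export gave 1 call in the responses. Ldha, the lactate dehydrogenase subunit that favours lactate, had log2 levels of 10.59 and 10.55 in KO arrays at 0 h, 10.33 and 10.34 after 2 h, then 10.41 and 10.32 after 4 h. WT arrays had 10.30 and 10.04 at 0 h, 9.998 and 9.711 after 2 h, then 10.06 and 10.08 after 4 h. Every KO array was above every WT array. At 2 h the difference from 0 h was -0.24 ± 0.09 in KO, which was not called (adjusted p = 0.0929), and -0.32 ± 0.09 in WT (adjusted p = 0.0261). The WT value became -0.19 with WT 0 h A removed (adjusted p = 0.265) and -0.17 with WT 2 h B removed (adjusted p = 0.318). Slc16a3, the lactate exporter of glycolytic cells, and Pdk1, the kinase that holds pyruvate back from the mitochondrion, were not called. Pdk1 in WT at 2 h lay near the threshold. It was called lower with trimmed-mean scaling (adjusted p = 0.0204) and on the deposited scale (adjusted p = 0.013). The 60th percentile filter (adjusted p = 0.0441) and the mean of all probe sets (adjusted p = 0.0141) called it lower too. Its 2 other probe sets gave -0.95 and -0.08, and 1 of them was called. Slc16a3 had the lowest differences of the genes not called, -0.57 at 4 h in each genotype, with standard errors of 0.24.

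**Figure D3:**
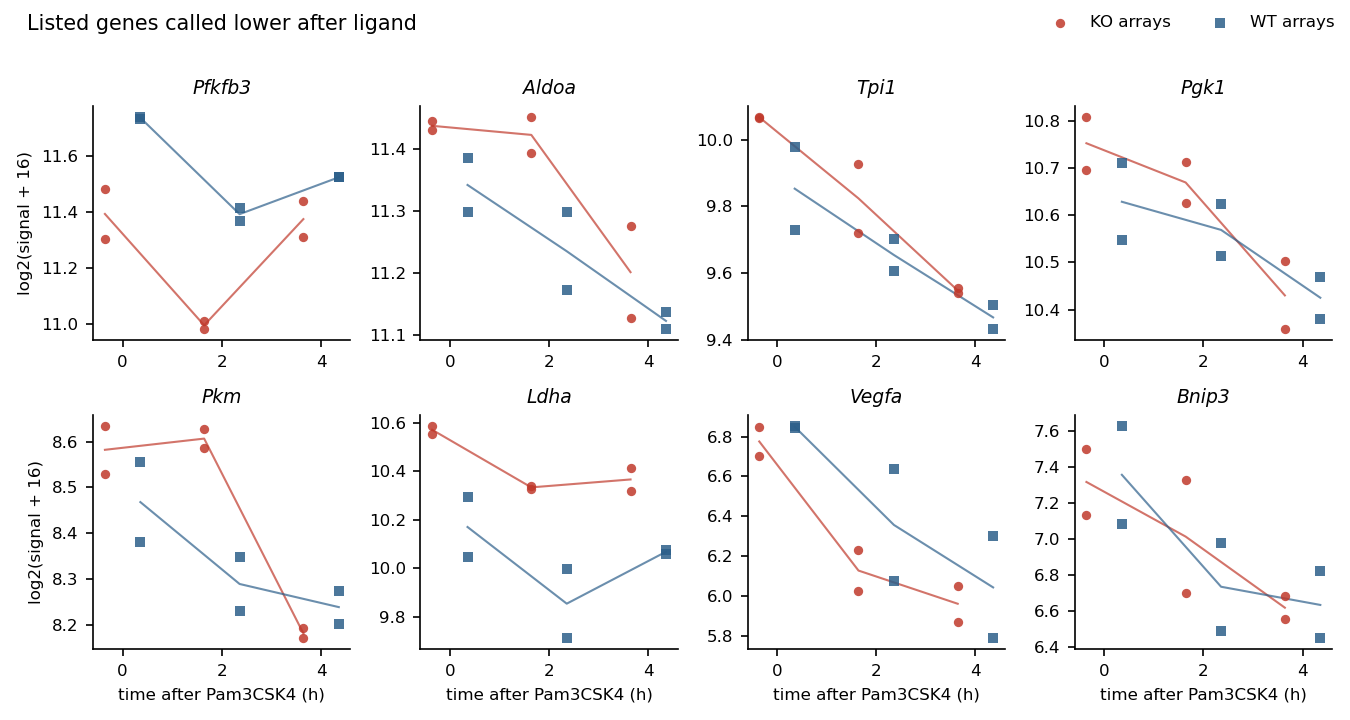
Log2 level in every array of the 8 genes called lower after ligand in at least 1 genotype, by hours after Pam3CSK4, KO as red circles left of WT as blue squares and lines through the group means. The group means of Tpi1 and Vegfa are lowest at 4 h in both genotypes, and those of Pfkfb3 are lowest at 2 h. Ldha, Pfkfb3 and Tpi1 are separated by genotype in all arrays at each time, Tpi1 with no call between the genotypes.

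Hif1a itself rose modestly. Its log2 levels in KO arrays were 10.95 and 11.07 at 0 h, 11.25 and 11.27 after 2 h, then 11.16 and 11.13 after 4 h. In WT arrays they were 10.85 and 10.90 at 0 h, 11.24 and 11.28 after 2 h, then 11.13 and 11.21 after 4 h. Every array after ligand was above every array at 0 h. The difference at 2 h was 0.38 ± 0.06 in WT (adjusted p = 0.000326), and 2 other probe sets gave 0.49 and 0.56, with 1 of them called. In KO at 2 h it was 0.25 ± 0.06 (adjusted p = 0.0101), but -0.11 on the deposited scale, where it was 0.30 above the median of all genes. That KO call was lost with KO 0 h A or KO 2 h B removed (adjusted p = 0.109 and 0.066). At 4 h the difference was 0.13 ± 0.06 in KO with no call and 0.29 ± 0.06 in WT (adjusted p = 0.00326).

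Of the prolyl hydroxylases, Egln3 rose and Egln1 did not pass the test. Egln3, whose enzyme acts on HIF and is itself a HIF target, had log2 levels of 6.31 and 6.27 in KO arrays at 0 h, 6.72 and 7.09 after 2 h, then 7.35 and 7.25 after 4 h. WT arrays had 6.26 and 6.18 at 0 h, 7.025 and 6.995 after 2 h, then 7.45 and 7.47 after 4 h. The 3 times did not overlap in either genotype. At 2 h the difference was 0.62 ± 0.13 in KO (adjusted p = 0.00335) and 0.79 ± 0.13 in WT (adjusted p = 0.00039), and at 4 h it was 1.01 ± 0.13 in KO (adjusted p = 4.39e-05) and 1.24 ± 0.13 in WT (adjusted p = 4.71e-06). Without KO 2 h B the KO value at 2 h was 0.43 (adjusted p = 0.0565). The second probe set of Egln3, whose differences were 0.16 in KO and -0.33 in WT at 2 h and 0.63 in KO and 0.12 in WT at 4 h with standard errors of 0.43, was not called. With the mean of both probe sets none of the 4 calls of Egln3 was kept. Egln1, the main oxygen sensor of the family, had log2 levels from 6.29 to 6.84 with no call.

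Adm made the largest rise of the 29 genes at 2 h in both genotypes. It encodes adrenomedullin, a vasodilator peptide induced by hypoxia. Its log2 levels were 6.96 and 6.46 in KO arrays at 0 h, 8.29 and 7.95 after 2 h, then 7.30 and 7.33 after 4 h. In WT arrays they were 6.41 and 6.00 at 0 h, 8.22 and 8.15 after 2 h, then 7.17 and 6.75 after 4 h. Arrays at 2 h were above those at 4 h, and those at 4 h above those at 0 h, in each genotype. The difference at 2 h was 1.41 ± 0.18 in KO (adjusted p = 4.42e-05) and 1.98 ± 0.18 in WT (adjusted p = 9.97e-07), or 2.66-fold and 3.94-fold, and the second probe set was called at 1.11 in KO and 1.85 in WT. Both calls were kept in all alternatives, the deposited scale included. At 4 h the difference was 0.61 ± 0.18 in KO (adjusted p = 0.0306) and 0.76 ± 0.18 in WT (adjusted p = 0.00831). The second probe set gave 0.19 in KO with no call and 0.90 in WT, which was called, and with the mean of both probe sets the KO call was lost (adjusted p = 0.19). The KO value at 4 h became 0.35 with KO 0 h B removed (adjusted p = 0.31), and the call was also lost without either KO array at 4 h (adjusted p = 0.0975 and 0.123). The WT call was lost with WT 0 h B or WT 4 h A removed (adjusted p = 0.105 and 0.121).

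Ndrg1, a stress-induced protein of the N-myc downstream regulated family, rose in smaller steps. KO arrays had log2 levels of 10.56 and 10.42 at 0 h, 10.73 and 10.80 after 2 h, then 10.87 and 10.85 after 4 h. WT arrays had 10.18 and 10.31 at 0 h, 10.72 and 10.64 after 2 h, then 10.76 after 4 h in both. The 3 times did not overlap in either genotype. The difference was 0.27 ± 0.07 in KO (adjusted p = 0.0119) and 0.43 ± 0.07 in WT (adjusted p = 0.000332) at 2 h, and 0.37 ± 0.07 in KO (adjusted p = 0.00127) and 0.51 ± 0.07 in WT (adjusted p = 7.31e-05) at 4 h; all 4 other probe sets had positive differences in each response. The KO value at 2 h was -0.10 on the deposited scale, 0.31 above the median of all genes there, and its call was lost with KO 0 h B or KO 2 h B removed (adjusted p = 0.119 and 0.094).

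Vegfa and Bnip3, hypoxia targets in other settings, were lower after ligand. Vegfa, the angiogenic growth factor, had log2 levels of 6.85 and 6.70 in KO arrays at 0 h, 6.02 and 6.23 after 2 h, then 5.87 and 6.05 after 4 h. WT arrays had 6.85 and 6.84 at 0 h, 6.07 and 6.64 after 2 h, then 6.30 and 5.79 after 4 h. In each genotype the arrays after ligand were all below those at 0 h. The difference was -0.65 ± 0.19 in KO at 2 h (adjusted p = 0.0286) and -0.81 ± 0.19 in KO at 4 h (adjusted p = 0.00746). In WT it was -0.81 ± 0.19 at 4 h (adjusted p = 0.00798), and -0.49 ± 0.19 at 2 h with no call. That WT difference at 2 h was called lower on the deposited scale (adjusted p = 0.00656) and with trimmed-mean scaling (adjusted p = 0.0409). The mean of all probe sets called it lower too (adjusted p = 0.00463). Other settings, leaving-out of arrays aside, did not call it. The second probe set gave -0.67 there with no call. The KO call at 2 h was lost without any 1 of the 4 arrays compared (adjusted p 0.0545 to 0.16), the KO call at 4 h with KO 0 h A or KO 4 h A removed (adjusted p = 0.0648 each), and the WT call with WT 4 h B removed (adjusted p = 0.125).

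Bnip3, a mitochondrial receptor for mitophagy, had 7.50 and 7.13 in KO arrays at 0 h, 6.70 and 7.33 after 2 h, then 6.68 and 6.55 after 4 h. In WT arrays it had 7.63 and 7.08 at 0 h, 6.98 and 6.49 after 2 h, then 6.82 and 6.45 after 4 h. At 2 h its difference was -0.30 ± 0.23 in KO and -0.62 ± 0.23 in WT with no call (adjusted p = 0.203 and 0.0696). The deposited scale called both lower (adjusted p = 0.0179 in KO and 0.00201 in WT). A common trimmed mean called the WT difference alone (adjusted p = 0.0352). The arrays at 4 h lay below those at 0 h in each genotype, with differences of -0.70 ± 0.23 in KO (adjusted p = 0.0449) and -0.72 ± 0.23 in WT (adjusted p = 0.0376). The KO call was lost without any 1 of its 4 arrays (adjusted p 0.053 to 0.285). The WT value became -0.45 with WT 0 h A removed (adjusted p = 0.326), and its call was also lost with WT 4 h B removed (adjusted p = 0.264). P4ha1, a collagen prolyl hydroxylase, and Car12, a carbonic anhydrase of the cell surface, were not called.

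Between 2 and 4 h few listed genes were called, in shares near those of all tested genes. In KO arrays 2 of the 29 genes were called higher and 3 lower at 4 h than at 2 h, beside 6.46% and 7.25% of all tested genes, and in WT arrays 1 was higher and 2 lower, beside 5.32% and 5.75%. Adm fell in both, with differences of -0.80 ± 0.18 in KO (adjusted p = 0.00836) and -1.22 ± 0.18 in WT (adjusted p = 0.000449). Slc2a6 was lower in WT, at -0.56 ± 0.11 (adjusted p = 0.00395), with -0.35 ± 0.11 in KO and no call (adjusted p = 0.05 after rounding). Hk2 rose further in KO, by 0.38 ± 0.10 (adjusted p = 0.0191), with 0.26 ± 0.10 in WT and no call (adjusted p = 0.118). Egln3 was at 0.39 ± 0.13 in KO with no call (adjusted p = 0.0601) and rose in WT, by 0.45 ± 0.13 (adjusted p = 0.0377). Whether these changes between 2 and 4 h differed between the genotypes was not tested. Pfkfb3 was higher at 4 h than at 2 h in KO by 0.38 ± 0.07 (adjusted p = 0.00154) and Pkm lower there, at -0.42 ± 0.09 (adjusted p = 0.00564). Aldoa was lower in KO, at -0.22 ± 0.07 (adjusted p = 0.0415), but at 0.05 on the deposited scale. These comparisons share the 2 h arrays with those at 2 h against 0 h, so an extreme array at 2 h enters both.

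Several of these later calls rested on single arrays. Without KO 2 h A those of Adm (adjusted p = 0.0972), Hk2 (adjusted p = 0.149) and Aldoa (adjusted p = 0.0908) were lost in KO. Those of Hk2 and Aldoa were also lost with KO 4 h A removed (adjusted p = 0.0919 and 0.294), that of Hk2 with KO 4 h B removed (adjusted p = 0.0839) and that of Aldoa with KO 2 h B removed (adjusted p = 0.202). In WT the call of Slc2a6 was lost with WT 2 h A or WT 4 h A removed (adjusted p = 0.0747 and 0.0511) and that of Egln3 without any 1 of its 4 arrays (adjusted p 0.126 to 0.16). The deposited scale gave 1 higher and 0 lower in KO, beside 2.03% and 0.336% of all tested genes, and 0 higher and 1 lower in WT, beside 1.35% and 0.446%. Trimmed-mean scaling gave 3 higher and 2 lower in KO, beside 6.41% and 6.96%.

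The genotype comparison asked which of these genes differ with the genotype label. Ldha and Hk3 were higher and Pfkfb3 lower in KO arrays than in WT arrays. At 0 h 1 gene was called higher in KO (Ldha) and 1 lower (Pfkfb3), beside 1.95% and 1.35% of all tested genes. At 2 h Hk3 and Ldha were called higher and Pfkfb3 lower, beside 1.01% and 1.29%. At 4 h limma called 0 of the 29 genes in either direction, beside 1.13% higher and 1.26% lower, and 5 had an unadjusted p below 0.05. Averaged over the 3 times, Hk3, Ldha and Ndrg1 were called higher in KO and Pfkfb3 lower, beside 6.21% and 4.28%. Positive differences were found for 23 of the 29 genes at 0 h, 19 at 2 h and 18 at 4 h, where 58.3%, 56.8% and 53.1% of all tested genes were positive. The median difference of the list was 0.12 at 0 h, 0.05 at 2 h and 0.02 at 4 h, beside 0.04, 0.03 and 0.015 for all genes.

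**Figure D4:**
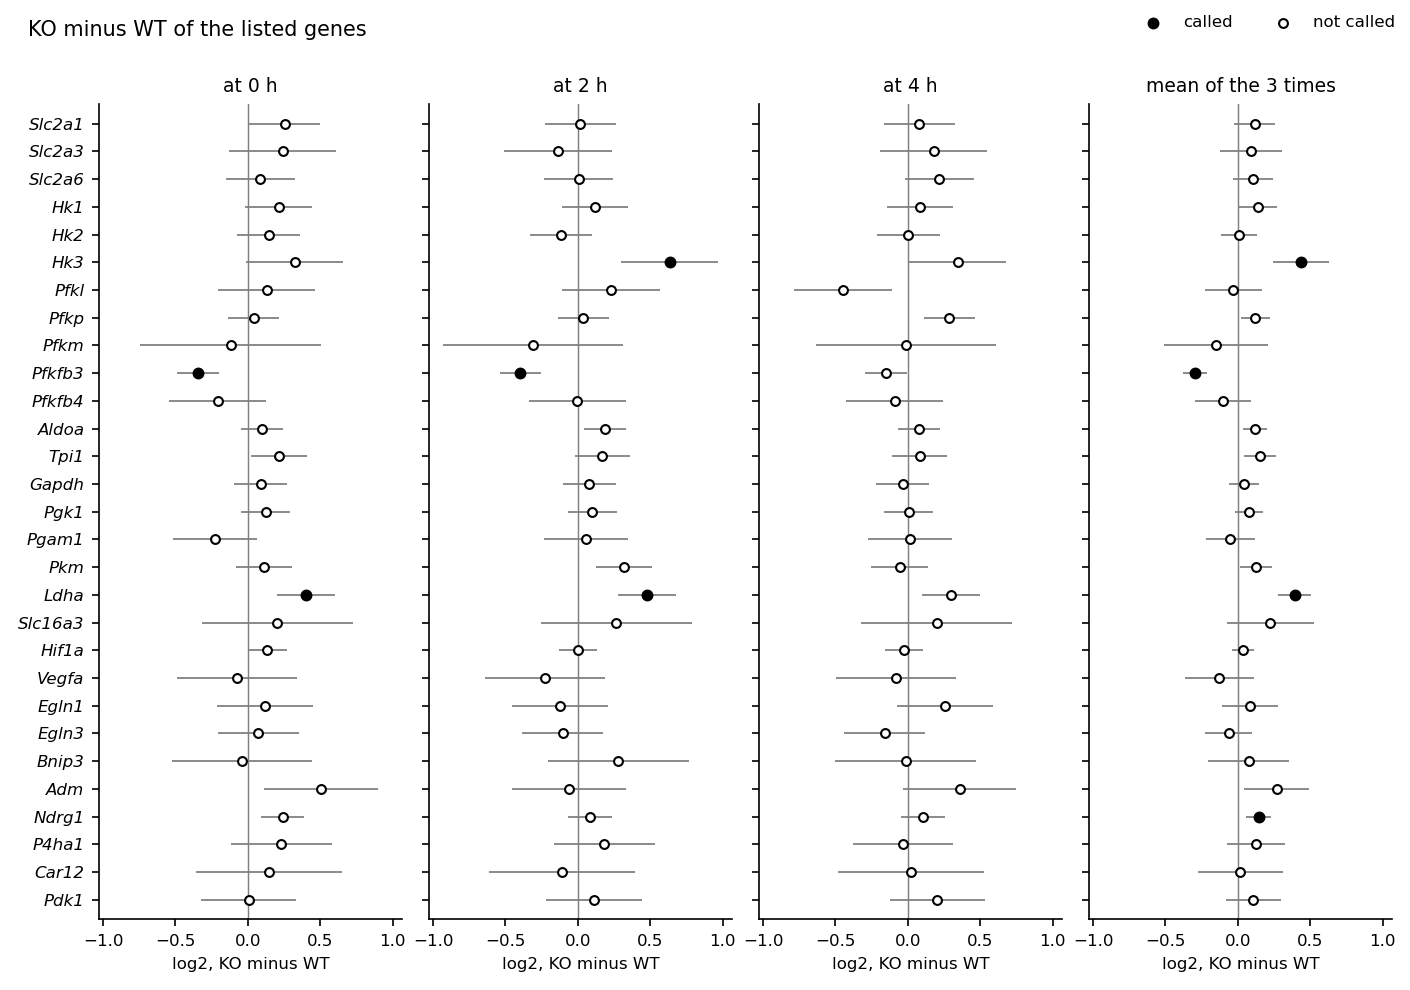
Log2 difference of KO minus WT arrays for the 29 measured genes at 0, 2 and 4 h and as the mean of the 3 times, with 95% confidence intervals of the limma fit and filled symbols where the gene was called. Ldha and Hk3 lie right of 0 and Pfkfb3 left of 0 at every time, and most other intervals cross 0.

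Ldha, whose values by array are given above, was higher in KO than in WT by 0.40 ± 0.09 at 0 h (adjusted p = 0.0268) and 0.48 ± 0.09 at 2 h (adjusted p = 0.0113). At 4 h the difference was 0.30 ± 0.09 with no call (adjusted p = 0.138). Averaged over the times it was 0.39 ± 0.05 (adjusted p = 0.000174), or 1.31-fold, with no overlap between 6 KO and 6 WT arrays, and it was kept without any 1 array. The call at 0 h was lost with KO 0 h A, KO 0 h B or WT 0 h B removed (adjusted p = 0.145, 0.115 and 0.307), and that at 2 h with KO 2 h A, KO 2 h B or WT 2 h B removed (adjusted p = 0.0758, 0.102 and 0.18). On the deposited scale the averaged difference was 0.17 (adjusted p = 0.546), which was 0.29 above the median of all genes there.

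Hk3 had log2 levels of 7.88 and 7.81 in KO arrays at 0 h, 7.73 and 7.67 after 2 h, then 7.58 and 7.54 after 4 h. WT arrays had 7.41 and 7.64 at 0 h, 7.37 and 6.76 after 2 h, then 7.32 and 7.12 after 4 h. The KO arrays were the higher ones at each time, and WT 2 h B was the lowest of all. Averaged over the times Hk3 was higher in KO by 0.44 ± 0.09 (adjusted p = 0.00546), was kept without any 1 array, and its second probe set was called at 0.60. At 2 h the difference was 0.635 ± 0.16 (adjusted p = 0.0483), became 0.33 with WT 2 h B removed (adjusted p = 0.377), and was not called without KO 2 h A or KO 2 h B either (adjusted p = 0.187 and 0.171). On the deposited scale the averaged difference was 0.26 (adjusted p = 0.384).

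Pfkfb3 was lower in KO than in WT in every pair of arrays at each time. The difference was -0.34 ± 0.07 at 0 h (adjusted p = 0.0097), -0.40 ± 0.07 at 2 h (adjusted p = 0.00511) and -0.15 ± 0.07 at 4 h with no call (adjusted p = 0.34). Averaged over the times it was -0.30 ± 0.04 (adjusted p = 0.000112), a call that was kept in all 22 alternatives, the deposited scale included, and the second probe set gave -0.48 and was called. The call at 0 h was lost with KO 0 h B or WT 0 h B removed (adjusted p = 0.121 and 0.0608), and that at 2 h with KO 2 h B, WT 2 h A or WT 2 h B removed (adjusted p = 0.0671, 0.056 and 0.0502).

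Ndrg1 was higher in KO by 0.14 ± 0.04 averaged over the times (adjusted p = 0.0343), but at -0.09 on the deposited scale, where all genes had a median of -0.12. Its call was lost in 8 of the 12 fits that left out 1 array each (adjusted p 0.0655 to 0.109), the 8 being those without KO 0 h A, KO 2 h B, either KO or WT array at 4 h, WT 0 h A or WT 2 h B. The deposited scale called 0 genes at 0 h, beside 0.0782% higher and 0.164% lower of all tested genes. At 2 h and over all times it called 0 higher and 1 lower, in both cases Pfkfb3, beside 0.0391% and 0.477% at 2 h and 0.383% and 3.82% over all times. Trimmed-mean scaling called 0 higher and 1 lower at 0 h, beside 1.7% and 1.16%.

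Markers of macrophages and monocytes also differed with the genotype label. Of 7 measured, 6 were called higher in KO at 0 h, 5 at 2 h and 6 at 4 h. The shares of all tested genes called higher in KO were 1.95%, 1.01% and 1.13%. Their summed signal was 4832 to 5000 in KO arrays and 2925 to 2952 in WT arrays at 0 h. At 2 h it was 3476 to 3580 in KO and 2116 to 2291 in WT, and at 4 h it was 3365 to 3532 in KO and 1928 to 2104 in WT. All 7 were above the filter in these data, among them Csf1r, Adgre1 and C1qa. Other marker lists moved with genotype too. Of 10 dendritic cell markers 4 were called higher in KO at 0 h (Batf3, H2-Ab1, Irf4 and Itgax), 2 higher and 1 lower at 2 h, 2 higher at 4 h, and 5 higher and 1 lower over all times. Over all times 2 of 4 tested B cell markers were higher, and of 6 tested T cell markers 2 were higher and 1 lower. The part of such cells in the differences of Hk3, a myeloid hexokinase, Ldha and Pfkfb3 was not tested.

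**Figure D5:**
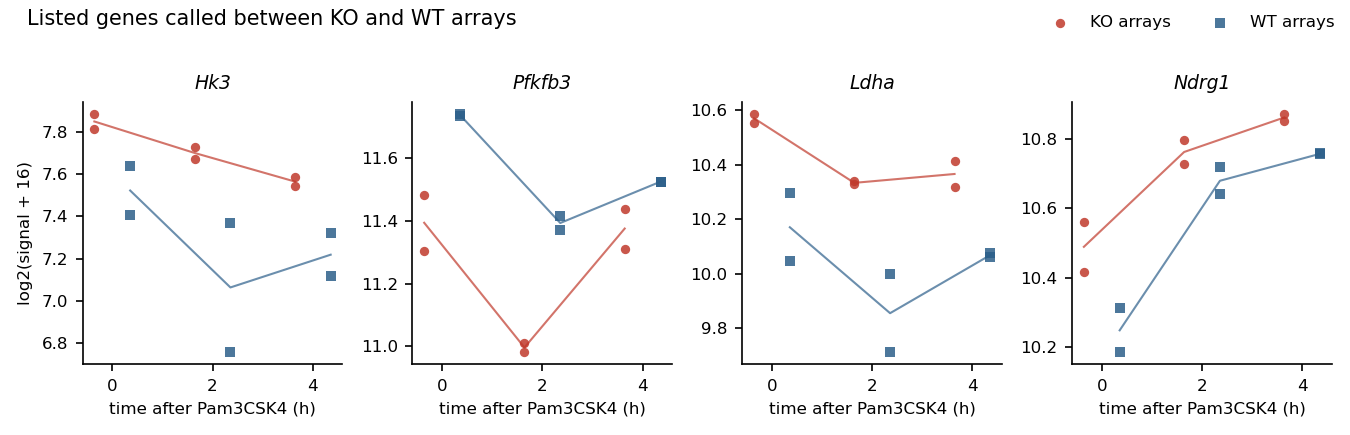
Log2 level in every array of the 4 genes called between KO and WT arrays at a time or over all times, by hours after Pam3CSK4, KO as red circles left of WT as blue squares and lines through the group means. Ldha, Hk3 and Ndrg1 are higher in KO and Pfkfb3 lower at each of the 3 times. In both genotypes the group means of Ldha and Pfkfb3 are lowest at 2 h and those of Ndrg1 are highest at 4 h.

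Whether the response itself differed with the genotype label was tested by the difference of KO and WT responses. By limma 0 of the 29 genes were called at 2 h and 0 at 4 h, beside 0.0313% and 0.0469% of all tested genes, and 1 gene had an unadjusted p below 0.05 at each time. At 2 h it was Adm, whose response was smaller in KO, at -0.57 with a 95% confidence interval of -1.12 to -0.01 (adjusted p = 0.826). At 4 h it was Pfkl, with -0.58 and an interval of -1.06 to -0.10 (adjusted p = 0.742). For Hk2 the interval of the difference was -0.57 to 0.04 at 2 h and -0.44 to 0.17 at 4 h, and for Slc2a6 it was -0.42 to 0.26 and -0.21 to 0.47. For Egln3 it was -0.57 to 0.22 at 2 h and -0.63 to 0.16 at 4 h.

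The 13 genes called in none of the 12 comparisons were Slc2a1, Slc2a3, Hk1, Pfkl, Pfkm, Pfkfb4, Gapdh, Pgam1, Slc16a3, Egln1, P4ha1, Car12 and Pdk1. Their differences from 0 h ran from -0.57 (Slc16a3, KO at 4 h) to 0.40 (Slc2a3, WT at 2 h). The smallest adjusted p among them was 0.057, for Pdk1 in WT at 2 h, whose difference was -0.44 ± 0.15. KO minus WT ran from -0.45 (Pfkl at 4 h) to 0.27 (Slc16a3 at 2 h).

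Other genes of the pathways were read from lists of 41 glycolysis, pyruvate and pentose phosphate genes and 38 hypoxia genes, of which 30 each were tested. The shares of all tested genes called higher and lower, to set beside their counts, were 7.85% and 11.7% in KO at 2 h, 7.24% and 10.9% in KO at 4 h, 8.43% and 11.5% in WT at 2 h, and 8.31% and 9.9% in WT at 4 h. In the first list limma called 0 higher (0 also at an unadjusted p below 0.05) and 3 lower in KO at 2 h, 1 and 6 in KO at 4 h, 1 and 2 in WT at 2 h, and 2 and 5 in WT at 4 h. Pygl, the liver isoform of glycogen phosphorylase, fell in all 4, with differences of -0.68 in KO and -0.35 in WT at 2 h, and -1.14 in KO and -0.76 in WT at 4 h. Eno3, the muscle enolase, was lower at 4 h, at -1.05 in KO and -0.86 in WT, and Taldo1, transaldolase of the pentose phosphate pathway, was at -0.48 in KO and -0.49 in WT. Bpgm, which makes bisphosphoglycerate, was lower at 4 h, at -0.83 in KO and -0.45 in WT, and Pdk4, a pyruvate dehydrogenase kinase, was lower at -0.51 in KO with no call in WT. Slc16a1, a monocarboxylate transporter, was higher at 4 h by 0.56 in KO and 0.46 in WT.

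In the hypoxia list 3 were called higher and 5 lower in KO at 2 h, 0 (2 at an unadjusted p below 0.05) and 8 in KO at 4 h by limma, 3 and 6 in WT at 2 h, and 2 and 7 in WT at 4 h. Vhl, the adaptor that sends hydroxylated HIF for degradation, fell, with differences of -0.97 in KO and -0.91 in WT at 2 h, and -0.96 in KO and -0.76 in WT at 4 h (adjusted p of 4.87e-05 or smaller). Hilpda, a lipid droplet protein, rose at 2 h by 0.58 in KO and 0.94 in WT, and was called at 4 h in WT, at 0.55, with -0.03 in KO. Mxi1, an antagonist of MYC, was called lower in all 4 responses, between -0.54 and -0.42. At 4 h Ddit4, an inhibitor of mTOR signalling, was lower, at -0.64 in KO and -0.25 in WT, Hmox1, heme oxygenase, was at -0.70 in KO and -0.32 in WT, and Epas1, the second HIF alpha subunit, was at -0.65 in KO and -0.30 in WT.

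Between genotypes, the share of all tested genes called higher in KO was 1.95% at 0 h, 1.01% at 2 h, 1.13% at 4 h and 6.21% over all times. The share called lower was 1.35% at 0 h, 1.29% at 2 h, 1.26% at 4 h and 4.28% over all times. The first list had 2 genes higher in KO at 0 h, 1 at 2 h, 1 at 4 h and 4 over all times. By limma 0 were lower in each, and 0, 2, 3 and 2 of them at an unadjusted p below 0.05. Pygl was called at every time, higher in KO by 0.92 at 0 h, 0.59 at 2 h and 0.54 at 4 h, and Eno3 (0.38), Slc16a1 (0.28) and Tkt (0.19), a transketolase, were higher over all times. The hypoxia list had 3 higher and 1 lower at 0 h, 1 of each at 2 h, 1 higher and 2 lower at 4 h, and 5 higher and 2 lower over all times. Mif, a cytokine that is also a HIF target, was higher in KO at each time, by 0.39 at 0 h, 0.32 at 2 h and 0.34 at 4 h. Cited2, which competes with HIF for a coactivator, was lower in KO at each time, at -0.32 at 0 h, -0.35 at 2 h and -0.33 at 4 h. Ddit4 was lower in KO at 4 h, at -0.65 (adjusted p = 0.000413). Over all times Hmox1 (0.29), Hilpda (0.37) and Mknk1 (0.29), a kinase downstream of MAP kinases, were higher in KO. In neither list was the difference of the responses called for any gene by limma, where in the first list 2 genes at 2 h and 4 at 4 h, and in the second 0 and 6, had an unadjusted p below 0.05.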

How the data were processed

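The deposited intensity values are linear signals for 45101 probe sets on 12 arrays, which the authors summarised with MAS5, as the submitters' processing notes state with neither version nor scaling. RNA was labelled by in vitro transcription from the 3′ end, per the labels. Arrays had trimmed means of 66.6 to 119 and medians of 14.6 to 21.2 before scaling. Signals were therefore quantile normalized and taken as log2(signal + 16), which understates changes of low genes.

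Probe sets were named from the platform annotation (34958 with 1 symbol, 932 with several, 9211 with none), and the brightest stood for a gene. Genes at or above the 40th percentile of probe set means (4.73 on the log2 scale) were fitted with limma 3.58.1 (R 4.3.3) as 6 group means, by lmFit and eBayes with a trend, two-sided. The call is a Benjamini-Hochberg adjusted p below 0.05, over all tested genes per comparison. The fit has 6 residual and 9.13 prior degrees of freedom, and the number of arrays limits the precision.

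The alternatives tried changed the scaling (none, or a common trimmed mean), the pseudocount (1 or 64), the filter (none, or 60th percentile), the probe sets of a gene (their mean, or those without suffix), the trend of eBayes, the groups in the fit and the replicate letter as a block, or left out each array. The steps were tested on simulated data. The listed genes, the other lists, markers and alternatives were chosen with earlier results of these data known. Listed genes called in at least 1 comparison are given by array; of each other list up to 6 called genes with the smallest adjusted p in the responses and in the genotype comparisons are named. No batch is given in the labels. Promoter sequences are from RefSeq (GRCm38.p6), matched by symbol for 29 of the 31 genes.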

Additional observations from a re-analysis of the deposited data

How the results depend on the processing

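Of 59 calls of a listed gene in a comparison, 31 were kept without each array in turn. Kept calls numbered 17 on the deposited scale (38 lost, 4 turned round), 50 with trimmed-mean scaling, 57 and 59 with pseudocounts of 1 and 64, 47 without a filter, 59 with the 60th percentile, 41 with the mean of all probe sets, 56 without suffixed probe sets, 39 without trend and 49 of 55 with only the groups compared. The 4 turned round on the deposited scale were Hif1a and Ndrg1 in KO at 2 h against 0 h (-0.107 and -0.0984), Aldoa in KO at 4 h against 2 h (0.0471) and Ndrg1 in KO against WT over all times (-0.0851); all genes shifted there too, and the cause was not tested further. Counts of calls that moved by over 1.5 times were these, with the cause not tested. On the deposited scale they were 4 for KO at 4 h, 1 for KO at 4 h against 2 h, 4 for WT at 4 h, 1 for WT at 4 h against 2 h, 0 for KO against WT at 0 h, 1 at 2 h and 1 over all times, where the main counts were 12, 5, 12, 3, 2, 3 and 4. KO against WT at 0 h gave 1 with trimmed-mean scaling, 1 without a filter, 1 with the mean of all probe sets, 0 without trend and 0 with only the groups compared. At 2 h it gave 0 without trend, and at 4 h 2 with the mean of all probe sets (Hk3 and Pfkfb3) and 1 without suffixed probe sets (Hk3) against 0. KO at 4 h gave 7 with the mean of all probe sets, and KO at 4 h against 2 h gave 9 with the 60th percentile. Without 1 array counts ran from 7 to 10 for KO at 4 h (7 without KO 0 h B), from 3 to 5 for KO at 4 h against 2 h (3 without KO 2 h A or KO 4 h A), from 7 to 9 for WT at 4 h (7 without WT 4 h B), from 1 to 2 for WT at 4 h against 2 h (1 if either WT 2 h A or WT 4 h A is removed), from 0 to 2 for KO against WT at 0 h (0 without KO 0 h B or WT 0 h B) and from 0 to 2 at 2 h (0 without KO 2 h B or WT 2 h B). No shift shared by arrays of the same letter was seen (correlations of deviations between groups from -0.04 to 0.10). Such values cannot show whether a letter marks a common animal, culture or day. With the replicate block 59 of 59 calls were kept. The counts were then 10 for WT at 2 h, 5 for KO against WT over all times and unchanged in the other comparisons. Differences of response between genotypes gave 0 calls under every alternative run. With 2 arrays a group, small changes of dim genes such as Slc16a3, Pfkm and Car12 are poorly bounded.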
